A study of Mus musculus with 15 samples.

Results

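This comparison asked what was still changed in thymic fibroblasts 3 days after a sublethal dose of radiation. It set the 5 libraries of fibroblasts taken on day 3 against the 5 libraries from untreated animals, 10 of the 15 libraries in the series, across the 10207 of 12763 genes that passed a filter on low counts. All groups were young male wild-type mice. The irradiated animals received 425 rad and gave fibroblasts after 1 or 3 days, and the controls were untreated mice of matched age. The cells were sorted from enzymatically dissociated thymus by a gate that the labels write as CD45-EpCAM+CD34+CD31-PDGFRalpha+, so cells that had lost surface CD34 or PDGFRalpha fell outside the gate in every group. RNA was counted with MARS-seq, a 3' end method that counts each captured mRNA molecule once through its unique molecular identifier (UMI). Whether replicates came from separate or pooled animals is not given in the labels, and the p-values cover only how these libraries vary, which may be technical.

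Fibroblasts form the capsule, septa and vessel sheaths of the thymus, lay down its matrix, and secrete growth factors for the epithelial cells that support developing T cells. Irradiation kills most thymocytes and the organ shrinks, then regrows over the following weeks. Radiation breaks DNA and stabilises the transcription factor p53, which switches on cell-cycle inhibitors and genes of cell death. Debris and nucleic acids from dying cells can switch on interferon and inflammatory genes in the neighbouring stroma.

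Each library held between 740169 and 3750214 UMIs, with the untreated ones at 1102176 to 2661621 and those of day 3 at 1967148 to 3750214. Levels are given as CPM, the UMIs of a gene scaled by the TMM-adjusted library total. Of 22 fibroblast markers, all tested, the summed level was 68967 to 74410.0 CPM in untreated libraries and 60515 to 69919 CPM on day 3. Epcam, for the epithelial protein that the label gives as positive, summed to 11 UMIs over the untreated and 10 over the day 3 libraries. Ptprc, which encodes CD45, gave 35 and 9 UMIs, and Pecam1, which encodes CD31, gave 35 and 47. The first principal component placed day 3 libraries, at -15.86 to -7.32, between untreated libraries, at -47.98 to -32.64, and day 1 libraries, at 30.35 to 86.56. On the third component, day 3 libraries, at -31.37 to -18.32, lay below both untreated libraries, at 9.255 to 22.11, and day 1 libraries, at -13.09 to 25.98.

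On day 3, 1883 genes, 18.4% of those tested, differed from untreated at an adjusted p under 0.05 in edgeR's quasi-likelihood test with Benjamini-Hochberg adjustment. The split was even, with 939 genes higher (9.2%) and 944 lower (9.25%). A change of at least 2-fold was fitted for 371 of the higher and 334 of the lower genes, and one of at least 4-fold for 98 and 37. The 5 day 3 values lay wholly above the 5 untreated values for 794 genes (7.78%) and wholly below them for 740 (7.25%). The authors' deposited table of the same comparison had 2190 genes at an adjusted p under 0.05, of which 1091 were higher and 1099 lower on day 3, and it shared 1807 of the 1883 calls with the same direction. Scaling to library totals instead of TMM moved the median log2 change of all genes from -0.012 to -0.132 and the share of calls that were higher from 49.9% to 31.4%, so directions below are relative to the TMM scale. For scale, 3335 genes (32.7%) differed between day 3 and day 1, and 4717 (46.2%) between day 1 and untreated. These last values share libraries with the day 3 comparison.

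**Figure D1:**
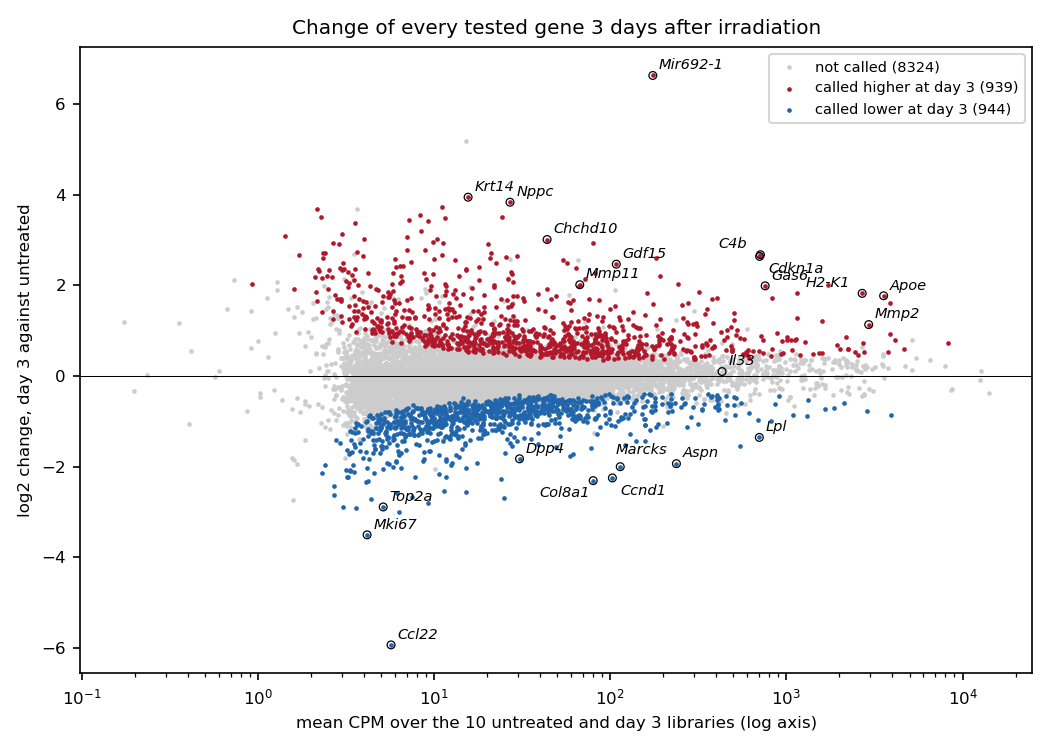
Log2 change between day 3 and untreated for each of the 10207 genes tested, against its mean CPM over the 10 libraries on a log axis. Red points are the 939 genes called higher, blue points the 944 called lower and grey points the rest, and circles mark genes named in the text.

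Members of a gene list are described below by how many were tested, how many were called in each direction and the median log2 change, to be read against the 9.2% higher and 9.25% lower of all genes and their median log2 change of -0.012. Markers of other cells moved between the groups as well. Because the samples are bulk RNA, fewer cells of a type and less RNA per cell cannot be told apart.

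Targets of p53 were in part above the untreated level. Of 40 tested, 20 were higher on day 3 and 0 lower, with a median log2 change of 0.67. Cdkn1a encodes p21, the inhibitor through which p53 stops the cell cycle. Its level was 171, 215, 194, 151 and 240.0 CPM in the untreated libraries and 1534, 1310.5, 1079, 1123 and 1029 CPM on day 3. The groups did not overlap, and the lowest day 3 library stood several times above the highest untreated one. The fitted log2 change was 2.64 ± 0.18 (edgeR adjusted p = 8.2e-09), and the gene stood at 1467 ± 316 CPM on day 1, from which day 3 did not differ at the threshold (log2 -0.27 ± 0.17, edgeR adjusted p = 0.229). Mdm2, the ubiquitin ligase that degrades p53, was at 30.6, 70.7, 49.6, 50.7 and 58.3 CPM in untreated libraries and 127, 139.8, 124, 149 and 109 CPM on day 3. All day 3 values were higher than all untreated ones (log2 1.30 ± 0.19, edgeR adjusted p = 6.6e-05), and all were lower than those of day 1, 425, 229, 285, 329.5 and 304 CPM (log2 -1.27 ± 0.18, edgeR adjusted p = 1.6e-05). Gdf15, a stress-induced secreted factor of the TGF-beta family, held 31.5, 27.5, 30.2, 28.9 and 47.2 CPM without irradiation and 232, 144, 210.4, 155 and 176 CPM on day 3, without overlap (log2 2.47 ± 0.29, edgeR adjusted p = 1.9e-05). Perp, a membrane protein of p53-dependent cell death that also belongs to epithelial junctions, went from 2.02 ± 0.98 to 21.2 ± 16.8 CPM and Psrc1, a spindle-associated protein, from 5.55 ± 2.02 to 30.4 ± 6.57 CPM (edgeR adjusted p = 0.00191 and 1.6e-06). Bax, which permeabilises mitochondria in cell death, rose by 1.13 ± 0.12 on the log2 scale (edgeR adjusted p = 2.7e-06). Trp53 itself was not called, at 30.2 ± 2.89 and 30.8 ± 5.71 CPM. Zmat3, an RNA-binding p53 target, was at 14.9 ± 2.73 CPM in untreated samples, 14.8 ± 6.25 on day 1 and 28.5 ± 5.15 on day 3, and its day 3 level was above both others (log2 0.91 ± 0.20 and 1.04 ± 0.22, edgeR adjusted p = 0.00376 and 7.9e-04). Against day 1, 5 of the 40 targets were higher and 14 lower on day 3.

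**Figure D2:**
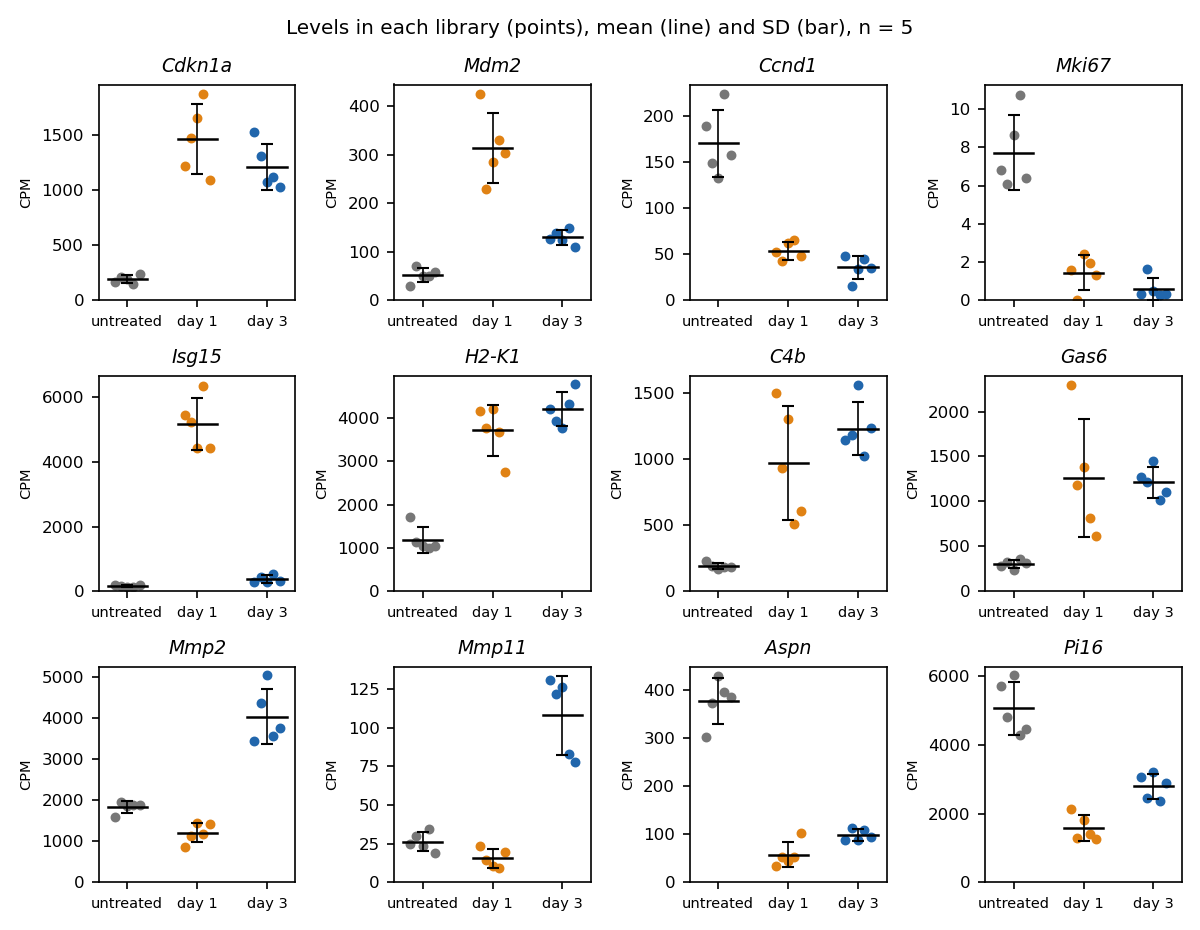
CPM of 12 genes in each library, with points for the 5 untreated (grey), 5 day 1 (orange) and 5 day 3 libraries (blue), a line at the mean and a bar for the SD, on axes that start at 0. Cdkn1a, H2-K1, C4b and Gas6 stood as high on day 3 as on day 1 or close to it, Isg15 and Mdm2 lay between untreated and day 1, and Mmp2 and Mmp11 were above both other groups.

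Cell-cycle genes were lower. Of 27 tested, 12 fell and 0 rose, with a median log2 change of -0.60, and without untreated replicate 3 the number that fell was 7. Ccnd1, cyclin D1, which drives entry into the cycle, was at 189, 149, 132, 223 and 157 CPM in untreated libraries and at 48.1, 15.7, 34.3, 45.1 and 35.3 CPM on day 3. No day 3 library reached the untreated range (log2 -2.25 ± 0.23, edgeR adjusted p = 1.4e-06). The proliferation antigen Mki67 was low throughout, at 6.81, 6.06, 8.63, 10.7 and 6.38 CPM before and 0.31, 1.62, 0.505, 0.279 and 0.343 CPM on day 3 (log2 -3.51 ± 0.46, edgeR adjusted p = 2.3e-05). These CPM rest on 94 UMIs over the untreated libraries and 10 over those of day 3. Top2a, the topoisomerase that untangles replicated chromosomes, gave 3.40, 8.48, 14.7, 8.40 and 10.2 CPM untreated and 1.55, 1.35, 1.51, 1.11 and 0.686 CPM on day 3. It was also below its day 1 level of 4.84 ± 1.97 CPM (day 3 against untreated log2 -2.89 ± 0.37, edgeR adjusted p = 2.0e-05; against day 1 log2 -1.90 ± 0.43, edgeR adjusted p = 0.00178). Prc1, a cytokinesis protein, and Birc5, survivin, had log2 changes of -2.06 ± 0.47 and -1.67 ± 0.37 (edgeR adjusted p = 0.00444 and 0.00376). Of 25 tested genes of DNA repair, 1, Msh6, was lower and none higher, and Msh6 lost its call without untreated replicate 2, 3, 4 or 5 or day 3 replicate 1, 2, 4 or 5 (edgeR adjusted p = 0.0594 to 0.148) and with the replicate block.

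The promoters of Top2a and Mki67 are shown because both genes are among the cell-cycle genes that fell and carry the cell cycle homology element, the letters TTTGAA read on either strand, which are in capitals. Each sequence runs from 250 bases before to 50 bases after the transcription start in RefSeq on GRCm38.p6, on the strand of the gene. Top2a lies on the minus strand of chr11:99024140-99024439 and Mki67 on the minus strand of chr7:135716330-135716629.
Top2a: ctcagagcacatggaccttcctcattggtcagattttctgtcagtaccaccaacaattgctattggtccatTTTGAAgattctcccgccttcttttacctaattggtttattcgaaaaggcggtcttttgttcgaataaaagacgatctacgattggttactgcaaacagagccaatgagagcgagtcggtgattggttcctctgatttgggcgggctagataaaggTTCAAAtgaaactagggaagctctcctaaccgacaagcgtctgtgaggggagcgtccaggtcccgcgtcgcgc
Mki67: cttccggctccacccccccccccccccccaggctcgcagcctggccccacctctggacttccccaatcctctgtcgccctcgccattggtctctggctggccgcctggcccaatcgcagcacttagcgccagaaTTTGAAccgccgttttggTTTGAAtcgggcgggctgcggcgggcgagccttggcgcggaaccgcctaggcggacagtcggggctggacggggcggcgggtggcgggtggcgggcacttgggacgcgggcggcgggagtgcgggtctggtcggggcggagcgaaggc
The letters were found in 6 of the 10 lower cell-cycle genes with a listed promoter (60.0%), in 3 of the 12 that were not called (25%) and in 13.3% of the 8177 tested genes with one. A match describes the letters and shows no binding.

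Interferon-stimulated genes, which carry the antiviral state, were partly back towards the untreated level. Of 51 tested, 21 were still higher than untreated and 0 lower, with a median log2 change of 0.71, while 50 of them were below day 1. Isg15, a ubiquitin-like protein, was at 213, 169.7, 126, 146 and 186 CPM in untreated libraries and 304, 454, 282, 551 and 313 CPM on day 3. All day 3 values were above the untreated ones (log2 1.18 ± 0.20, edgeR adjusted p = 3.1e-04), and all were below the day 1 values of 5461, 5233, 4426, 6356 and 4430.4 CPM (log2 -3.77 ± 0.21, edgeR adjusted p = 6.7e-11). Irf7, the transcription factor that amplifies type I interferon, held 149.7, 116, 126, 151 and 153 CPM untreated and 462, 515, 522, 579.7 and 429.7 CPM on day 3, without overlap (log2 1.85 ± 0.16, edgeR adjusted p = 1.5e-07). Ifit3, an antiviral protein of the IFIT family, and Bst2, tetherin, rose by 0.93 ± 0.24 and 0.89 ± 0.19 on the log2 scale (edgeR adjusted p = 0.0113 and 0.00249). Day 3 replicate 4 mattered for the count, since 13 members were called higher without it.

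The promoters of Isg15 and Ifit3 are shown because both remained raised and hold the core of the interferon-stimulated response element, searched on either strand as GAAA, any 2 bases and GAAA again, and given in capitals. They cover the same span around the RefSeq start on GRCm38.p6, for Isg15 on the minus strand of chr4:156200769-156201068 and for Ifit3 on the plus strand of chr19:34583279-34583578.
Isg15: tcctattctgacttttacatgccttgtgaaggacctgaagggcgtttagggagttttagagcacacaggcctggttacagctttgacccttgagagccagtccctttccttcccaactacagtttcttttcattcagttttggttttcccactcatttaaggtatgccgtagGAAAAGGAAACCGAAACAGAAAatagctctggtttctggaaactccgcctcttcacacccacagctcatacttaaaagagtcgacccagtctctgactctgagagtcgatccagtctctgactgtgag
Ifit3: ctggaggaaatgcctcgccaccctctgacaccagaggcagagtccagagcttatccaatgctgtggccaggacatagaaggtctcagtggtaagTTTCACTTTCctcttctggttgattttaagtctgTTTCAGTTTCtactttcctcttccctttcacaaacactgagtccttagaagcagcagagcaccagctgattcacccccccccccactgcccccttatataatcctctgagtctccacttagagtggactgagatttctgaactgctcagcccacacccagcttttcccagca
The 3 matches of Isg15 overlap each other. The letters were found in 8 of 14 listed members that were higher on day 3 (57.1%), in 13 of 22 that were not called (59.1%) and in 3.8% of the tested genes with a listed promoter, so the members still raised and the others held them in similar shares.

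Genes of MHC class I presentation, which show cytosolic peptides to CD8 T cells, had 6 of 19 members higher and none lower, with a median log2 change of 0.44. The classical heavy chains were not among the 11 members that were below day 1. H2-K1 was at 1707, 1139, 1039.6, 1007 and 1035 CPM untreated and 4211, 3934, 3773, 4311 and 4777 CPM on day 3, well clear of each other (log2 1.83 ± 0.17, edgeR adjusted p = 3.0e-07), and the day 3 level did not differ at the threshold from day 1 (log2 0.18 ± 0.16, edgeR adjusted p = 0.424). H2-D1 held 2684, 1789, 1728, 1672 and 1640.3 CPM untreated, 3786, 4284, 4142, 3887 and 3268 CPM on day 1 and 5945, 5209, 5559, 5495 and 6781 CPM on day 3. It was higher on day 3 than in both other groups (log2 1.61 ± 0.16 against untreated and 0.58 ± 0.16 against day 1, edgeR adjusted p = 8.4e-07 and 0.00621). Tap1, a subunit of the peptide transporter, and Nlrc5, the class I transactivator, were higher than untreated (log2 0.95 ± 0.13 and 1.48 ± 0.23, edgeR adjusted p = 4.2e-05 and 1.8e-04) and lower than on day 1 (log2 -1.55 ± 0.13 and -2.26 ± 0.18). B2m, the light chain, was at 2984 ± 470.2 and 4046 ± 484 CPM, short of the threshold (edgeR adjusted p = 0.149). Counting could split reads among the near-identical class I heavy chains, so the share of each is uncertain.

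MHC class II genes went the other way. H2-Aa, a class II alpha chain, held 108, 141, 139, 44.3 and 38.7 CPM untreated and 28.9, 29.7, 21.2, 30.6 and 31.9 CPM on day 3 (log2 -1.71 ± 0.31, edgeR adjusted p = 0.00108). The groups did not overlap, and the mean on day 1 was 176 ± 29.1 CPM. H2-Ab1 and H2-Eb1, further class II chains, had log2 changes of -1.58 ± 0.34 and -1.56 ± 0.35 (edgeR adjusted p = 0.00486 and 0.00573). Ccl22, a chemokine made by dendritic cells, was at 11.1, 21.8, 4.68, 1.01 and 17.9 CPM untreated and 0, 0, 0, 0.557 and 0 CPM on day 3, when 2 UMIs were counted in all 5 libraries (edgeR adjusted p = 8.2e-04). With 24 macrophage and dendritic cell markers written down and 20 of them analysed, their summed level was 95.1 to 412 CPM untreated, 346 to 802 on day 1 and 116 to 167 on day 3. Of the 14 tested, 7 were lower on day 3, among them C1qa at 19.6 ± 15.3 and 3.15 ± 1.33 CPM and Lyz2 at 43.4 ± 43.4 and 6.2 ± 2.88 CPM (edgeR adjusted p = 0.017 and 0.0191), and 2, among them Cd68, were higher. Siglech was at 0 UMIs on day 3. Thymocyte and T cell markers summed to 8.51 to 67.6 CPM untreated and 4.04 to 7.55 on day 3, and the 1 marker tested was lower. The part of these cells in the class II and Ccl22 values was not tested.

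Complement is the set of plasma proteins that tags cells and debris. Of 17 genes tested, 9 rose and 3 fell, with a median log2 change of 0.60. C4b, the component that anchors the classical pathway, was at 229.7, 192, 168, 186 and 188 CPM untreated and 1148, 1186, 1565, 1023 and 1240.5 CPM on day 3. Every day 3 library was several times above every untreated one (log2 2.68 ± 0.24, edgeR adjusted p = 3.0e-07). C4b and its near copy C4a can share reads, and C4a, at 1.93 ± 1.15 and 12.1 ± 1.27 CPM, changed in the same direction. Factor B, Cfb, which starts the alternative pathway, held 601, 689.7, 665, 753 and 698 CPM untreated and 2830.2, 2158, 3418, 2332 and 3097 CPM on day 3 (log2 2.02 ± 0.17, edgeR adjusted p = 8.5e-08) and had been at 4637 ± 853 CPM on day 1. C3, on which the pathways converge, and C2 rose by 0.73 ± 0.19 and 1.62 ± 0.19 on the log2 scale (edgeR adjusted p = 0.0121 and 8.2e-06). The proteases C1ra and C1s1 were above both the untreated and the day 1 level (C1ra log2 0.81 ± 0.14 and 0.44 ± 0.14, C1s1 log2 0.51 ± 0.14 and 0.74 ± 0.14, each edgeR adjusted p at most 0.0211). Among the genes that fell were C1qa, described above among the macrophage markers, and Cd55, which breaks up convertases, at log2 -1.0 ± 0.22 (edgeR adjusted p = 0.00399).

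Inflammatory cytokines and chemokines had 12 of 38 members above untreated and none below, with a median log2 change of 0.59, and 25 below day 1. Cxcl10, which attracts T cells, was at 341, 489, 386, 233 and 478 CPM untreated and 1124, 1290.0, 999, 1699.6 and 1283 CPM on day 3, without overlap (log2 1.73 ± 0.22, edgeR adjusted p = 1.9e-05). Cxcl5, which attracts neutrophils, went from 95.3 ± 29.9 to 390.2 ± 96.3 CPM and Ptx3, a soluble pattern receptor, from 277 ± 123 to 735 ± 106 CPM (edgeR adjusted p = 0.00458 and 0.00964). Lcn2, which binds bacterial siderophores, held 46.8, 44.4, 34.2, 33.9 and 183 CPM untreated, with replicate 5 far above the others, and 274, 223, 375, 286 and 418 CPM on day 3 (log2 2.20 ± 0.49, edgeR adjusted p = 0.00704). Cx3cl1, fractalkine, was lowest on day 1, at 47.1 ± 14.5 CPM untreated, 25 ± 5.77 on day 1 and 99.1 ± 27.3 on day 3 (edgeR adjusted p = 0.00117 against untreated and 7.8e-07 against day 1). Il6 was at 364 ± 193 and 295 ± 69.1 CPM and Saa3, an acute-phase protein, at 393 ± 385 and 805 ± 201 CPM, and neither was called (edgeR adjusted p = 0.699 and 0.139).

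**Figure D3:**
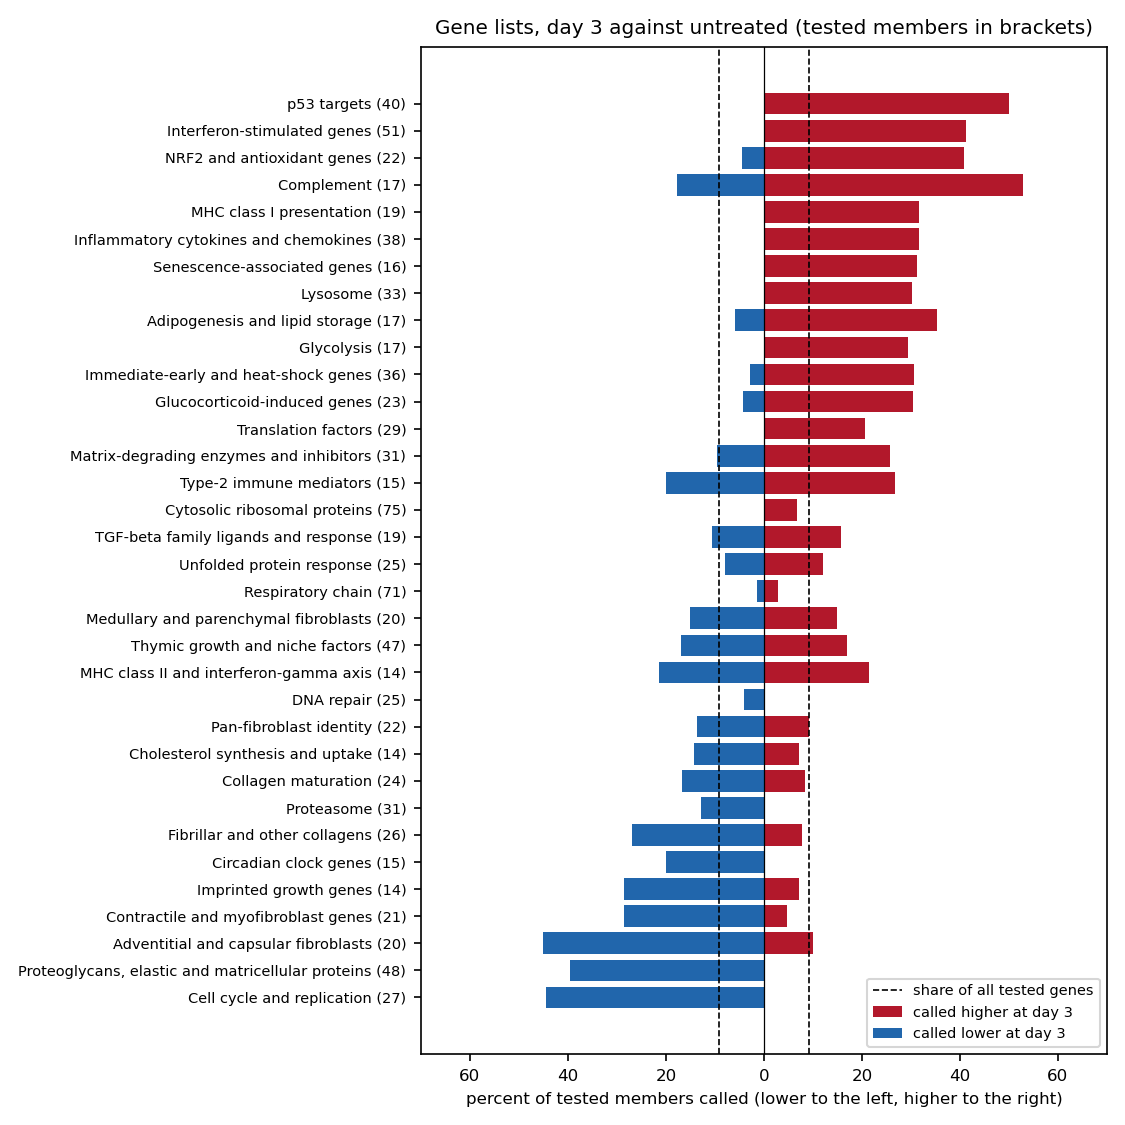
Percent of the tested members of each process and identity list called higher (red, to the right) or lower (blue, to the left) on day 3 against untreated, with the number tested in brackets and dashed lines at the 9.2% and 9.25% of all genes. Among these lists, targets of p53, complement and interferon-stimulated genes extended farthest to the right, and cell-cycle, adventitial and proteoglycan lists to the left.

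Matrix genes fell in part, and the enzymes that cut matrix moved separately. Of 48 tested genes for proteoglycans, elastic fibre, basement membrane and matricellular proteins, 19 fell and none rose, with a median log2 change of -0.35. Against day 1, 30 of the 48 were higher and 6 lower. Aspn, asporin, a small proteoglycan that binds collagen, was at 301, 373, 428, 396 and 386 CPM untreated and 88.5, 114, 87.8, 108 and 94.0 CPM on day 3. The ranges were far apart (log2 -1.94 ± 0.20, edgeR adjusted p = 1.4e-06). Nidogen, Nid1, which links laminin to collagen IV in basement membranes, held 1323, 1931, 1994, 1762 and 1484 CPM untreated, 317, 397, 467, 277 and 553 CPM on day 1 and 888, 1231, 762, 861 and 878 CPM on day 3. Its day 3 level lay between the other groups (log2 -0.88 ± 0.19 against untreated and 1.2 ± 0.19 against day 1, edgeR adjusted p = 0.00237 and 4.5e-05). Omd, osteomodulin, Ogn, osteoglycin, and Lama2, a laminin chain, had log2 changes of -1.76 ± 0.33, -1.55 ± 0.19 and -0.97 ± 0.19 (edgeR adjusted p = 0.00191, 1.1e-05 and 0.00136). Ccn5, a matricellular protein, was below both other groups at 29.1 ± 9.78 CPM, against 60.0 ± 14.7 untreated and 76.0 ± 24.9 on day 1 (edgeR adjusted p = 0.00421 and 1.2e-04).

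Collagen genes changed unevenly. Of 26 tested, 7 fell and 2 rose (1 without untreated replicate 4 or 5), and 14 were above day 1 with none below. Across the alternatives, the number that fell ran from 4 in the test against 1.5-fold to 12 with limma voom. The main fibrillar chains were not called, with Col1a1 at 1356 ± 238 and 852 ± 163 CPM and Col3a1 at 12206 ± 1377 and 13129 ± 1995 CPM (edgeR adjusted p = 0.05001 and 0.787). Col8a1, a network collagen of vessel walls, held 121, 137, 138, 104 and 167 CPM untreated and 26.1, 28.9, 17.7, 26.5 and 34.3 CPM on day 3, without overlap (log2 -2.31 ± 0.19, edgeR adjusted p = 9.2e-08). Col5a2, a minor chain of collagen fibres, and Col12a1, which coats them, fell to 49.6 ± 9.16 CPM from 119 ± 32.9 and to 6.17 ± 1.51 CPM from 21.5 ± 8.12 (edgeR adjusted p = 0.00196 and 2.4e-04). Col18a1, a basement membrane collagen, rose by 1.15 ± 0.20 (edgeR adjusted p = 5.7e-04).

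The matrix metalloproteinases Mmp2, Mmp14 and Mmp11 were higher on day 3 than in both other groups. Mmp2, which cuts gelatin and collagen IV, was at 1588, 1945, 1859, 1893 and 1886 CPM untreated, 871, 1131, 1444, 1169.7 and 1409 CPM on day 1 and 3448, 4355, 5044, 3557 and 3762 CPM on day 3. All day 3 libraries lay above all others (log2 1.14 ± 0.16 and 1.74 ± 0.16, edgeR adjusted p = 4.3e-05 and 4.8e-08). Mmp14, the membrane-bound enzyme that activates Mmp2, held 325, 299.8, 307, 312 and 260.0 CPM untreated, 334, 239.9, 260.3, 251 and 291 on day 1 and 578, 784, 855, 656 and 671 on day 3, again with every day 3 library above the rest (log2 1.24 ± 0.14 and 1.37 ± 0.14, edgeR adjusted p = 5.1e-06 and 2.5e-07). Mmp11, stromelysin 3, was at 24.7, 30.3, 23.7, 34.6 and 18.7 CPM untreated and 131, 122, 126, 83.3 and 77.5 CPM on day 3, when 3 libraries stood above the other pair (log2 2.02 ± 0.21 against untreated and 2.90 ± 0.24 against day 1, edgeR adjusted p = 1.6e-06 and 8.8e-09). Of the 31 tested enzymes and inhibitors, 8 rose and 3 fell, and without day 3 replicate 3 the number that rose was 5. The inhibitor Timp1 was at 170.4 ± 78.0 CPM untreated, 3728 ± 1467 on day 1 and 382 ± 44.5 on day 3 and Timp3, which is bound to matrix, at 252 ± 41.3, 85.8 ± 31.1 and 120.5 ± 15.8 (day 3 against untreated, edgeR adjusted p = 0.00687 and 7.0e-04). Adamts5, an aggrecanase, was lower on day 3 (log2 -1.83 ± 0.29, edgeR adjusted p = 1.9e-04).

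Contractile genes had 6 of 21 tested members lower and 1 higher (2 without day 3 replicate 3). Myl9, a myosin light chain, went from 248 ± 25 to 115 ± 56.5 CPM and Des, desmin, from 206 ± 64.8 to 107 ± 18.7 CPM (edgeR adjusted p = 0.0179 and 0.00615), and Des and Cnn2, calponin 2, were also below day 1 (edgeR adjusted p = 4.0e-05 and 1.7e-04). Acta2, smooth muscle actin, was not called, at 0.851 to 2.83 CPM untreated and 1.08 to 5.05 on day 3.

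Markers of adventitial and capsular fibroblasts, the cells around vessels and under the capsule, were lower in 9 of 20 tested and higher in 2 (1 without untreated replicate 2, 3 or 4 or day 3 replicate 1, 4 or 5), with a median log2 change of -0.51. Pi16, a peptidase inhibitor that marks adventitial fibroblasts in mouse tissues, was at 5711, 4812, 6037, 4296 and 4461 CPM untreated and 3051, 2446, 3199.6, 2353 and 2904 CPM on day 3. No values overlapped (log2 -0.86 ± 0.17, edgeR adjusted p = 0.00138), and day 1 had been lower still at 1585 ± 383 CPM. Dpp4, a surface peptidase that marks the same cells, and Efhd1, a mitochondrial calcium-binding protein, were lower, with log2 changes of -1.83 ± 0.20 and -1.18 ± 0.21 (edgeR adjusted p = 2.7e-06 and 6.9e-04). Of 20 markers of medullary and parenchymal fibroblasts, 3 rose and 3 fell, or 3 and 6 when scaled to totals. Inmt, a methyltransferase, went from 669 ± 82.3 CPM untreated through 123 ± 79.7 on day 1 to 1628 ± 369 on day 3 and was above both (log2 1.28 ± 0.34 and 3.74 ± 0.38, edgeR adjusted p = 0.0166 and 2.0e-06). Lpl, lipoprotein lipase, held 815, 1369.7, 1042, 955 and 867 CPM untreated and 334, 459, 426, 370.5 and 385 CPM on day 3 (log2 -1.35 ± 0.23, edgeR adjusted p = 4.9e-04), a clear gap in the other direction. Of the proteins of the sort gate, Pdgfra fell from 310.2 ± 40.2 to 193 ± 29.7 CPM (edgeR adjusted p = 0.00615). Cd34 was at 1571 ± 87.8 and 1084 ± 102 CPM (edgeR adjusted p = 0.022), and it lost its call without untreated replicate 5 or day 3 replicate 3 (edgeR adjusted p = 0.0508 to 0.0592).

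Factors that fibroblasts supply to the thymus moved in both directions. Of 47 tested growth and niche factors, 8 rose and 8 fell, with a median log2 change of -0.073, and 23 were above day 1. Gas6, the ligand of the TAM receptors through which phagocytes recognise dying cells, was at 286, 325, 243, 357 and 312 CPM untreated and 1277, 1213, 1451, 1015 and 1102 CPM on day 3. The lowest day 3 library was above every untreated one by a wide margin (log2 1.99 ± 0.26, edgeR adjusted p = 2.6e-05), and day 1 was at 1259.8 ± 654 CPM. Cxcl12, the chemokine that draws lymphoid progenitors and thymocytes, held 208, 232, 193, 169 and 181 CPM untreated and 429, 435, 427, 384 and 439 CPM on day 3 (log2 1.11 ± 0.26, edgeR adjusted p = 0.00694). Rspo3, which modulates WNT signals, was above both other groups, at 25.8 ± 4.29 CPM against 12.5 ± 5.04 untreated (edgeR adjusted p = 0.0124). Hbegf, a ligand of the EGF receptor, and Vegfa, which acts on endothelium, rose by 1.27 ± 0.26 and 0.70 ± 0.17 on the log2 scale (edgeR adjusted p = 0.00205 and 0.00571).

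Other factors fell. Bmp4, which acts on thymic epithelium, was at 176, 234, 214, 271 and 234 CPM untreated, 39.4, 36.2, 39.6, 41.6 and 89.2 on day 1 and 167, 105, 135, 113 and 156 on day 3. Day 3 lay between the other groups (log2 -0.74 ± 0.20 and 1.46 ± 0.22, edgeR adjusted p = 0.0143 and 2.6e-05). Kitl, the ligand of KIT on early thymocytes, held 16.2, 29.1, 26.3, 26.9 and 28.1 CPM untreated and 15.5, 12.7, 11.1, 8.64 and 14.7 CPM on day 3 (log2 -1.04 ± 0.23, edgeR adjusted p = 0.00309). Bmp7, another ligand of BMP receptors, and the vessel factors Angpt1 and Vegfc had log2 changes of -1.18 ± 0.26, -1.22 ± 0.25 and -0.75 ± 0.20 (edgeR adjusted p = 0.00297, 0.00207 and 0.0115). Fgf7, the keratinocyte growth factor of the thymic mesenchyme, was not called, at 36.7 to 52.7 CPM untreated and 40.9 to 51.6 on day 3, nor were Fgf10, at 76.7 ± 19.2 and 62.8 ± 12.2 CPM, Igf1, at 182 ± 37.2 and 168 ± 35.2 CPM, and Wnt5a, at 21.6 ± 6.22 and 13.6 ± 1.71 CPM (edgeR adjusted p = 0.984, 0.536, 0.722 and 0.0874).

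The series title concerns type-2 immunity in thymic regrowth, and the genes of that response changed in part. Il33, the alarmin that activates type-2 lymphocytes, held 462, 391, 422, 346 and 462 CPM untreated and 453, 429, 388, 515 and 445 CPM on day 3. The ranges overlapped (log2 0.10 ± 0.19, edgeR adjusted p = 0.778). Its day 1 level was 420.3 ± 133 CPM (day 3 against day 1, log2 0.077 ± 0.19, edgeR adjusted p = 0.79). Tslp, another epithelial and stromal alarmin, and the eosinophil chemokine Ccl11 were not called, at 11.2 ± 2.69 and 6.69 ± 1.64 CPM and at 1022 ± 151 and 1034 ± 34.2 CPM (edgeR adjusted p = 0.0502 and 0.969). Ccl8 rose from 14.4 ± 5.52 to 49.8 ± 12.3 CPM and Cish and Socs1, feedback inhibitors of cytokine receptors, rose by 1.21 ± 0.27 and 1.31 ± 0.22 (edgeR adjusted p = 0.00533, 0.00453 and 2.9e-04). Il4ra, the receptor chain for IL-4 and IL-13, was at 9.03 ± 2.13 and 14.9 ± 3.54 CPM (edgeR adjusted p = 0.0282), and it lost its call without untreated replicate 1 or 4 or day 3 replicate 1, 2 or 3 (edgeR adjusted p = 0.0502 to 0.0854). Over the 15 tested genes of this list, 4 rose and 3 fell, or 3 and 5 without day 3 replicate 2, 4 and 5 with RLE scaling and 3 and 6 when scaled to totals.

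Lipid, lysosomal and redox genes were among those raised. Apoe, the lipid carrier that delivers cholesterol to cells, was at 2457, 1816, 1381, 1249 and 1174 CPM untreated, 3269, 2237, 2245, 1578 and 2639 CPM on day 1 and 5689, 4803, 6419, 4688 and 5979.8 CPM on day 3. Every day 3 value was above every other value (log2 1.77 ± 0.21 and 1.21 ± 0.21, edgeR adjusted p = 7.9e-06 and 1.3e-04). Plin2, which coats lipid droplets, rose by 1.21 ± 0.15 (edgeR adjusted p = 1.3e-05). Adipocyte markers summed to 0.672 to 20.9 CPM untreated and 13.3 to 306 on day 3, and their part in the lipid genes was not tested. Of 33 lysosomal genes, 10 rose and none fell, with a median log2 change of 0.31, and 16 were above day 1. Hexa and Naglu, which degrade gangliosides and heparan sulfate, and Ctsd, cathepsin D, rose by 0.79 ± 0.15, 0.98 ± 0.16 and 0.60 ± 0.14 (edgeR adjusted p = 8.1e-04, 3.1e-04 and 0.00606). Of 22 antioxidant genes, 9 rose and 1 fell (0 without untreated replicate 4 or day 3 replicate 3, 4 or 5). Hmox1, the enzyme that breaks down haem, held 118, 203, 186, 119 and 266 CPM untreated and 492, 481, 651, 728 and 553 CPM on day 3 (log2 1.70 ± 0.20, edgeR adjusted p = 7.8e-06), and Srxn1, which repairs peroxiredoxins, rose by 1.01 ± 0.20 (edgeR adjusted p = 0.00125).

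Immediate-early and heat-shock genes, which respond to dissociation as well as to signals in the tissue, had 11 of 36 tested members higher and 1 lower (lower, 0 without untreated replicate 2, 3 or 5 or day 3 replicate 1, 2, 3 or 5), or 7 higher without untreated replicate 4. Fosl1 and Egr2 rose by 1.67 ± 0.25 and 1.25 ± 0.21 (edgeR adjusted p = 1.5e-04 and 4.4e-04). Glucocorticoid-induced genes rose in 7 of 23 and fell in 1, with Sgk1, a hormone-induced kinase, at 87.0 ± 14.9 and 263 ± 62.4 CPM (edgeR adjusted p = 8.2e-04). Cytosolic ribosomal proteins, with 5 of 75 higher, the respiratory chain, with 2 higher and 1 lower of 71, and the proteasome, with 4 of 31 lower, had shares near or below those of all genes. The proteasome count was 1 without untreated replicate 3 or 4 and 2 without untreated replicate 2 or day 3 replicate 1, 4 or 5, and the higher count of the respiratory chain 0 without untreated replicate 5 or day 3 replicate 2, 3, 4 or 5 and 1 without untreated replicate 2, 3 or 4 or day 3 replicate 1. Without untreated replicate 1 the ribosomal count was 10.

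The remaining lists are described more briefly. Glycolysis had 5 of 17 members higher, or 3 without untreated replicate 2 or 4 or day 3 replicate 4 or 5, among them Hk2, hexokinase 2, at 42.6 ± 21.9 and 90.4 ± 19.9 CPM and Slc2a1, a glucose transporter, at 26.5 ± 9.50 and 57.4 ± 7.14 CPM (edgeR adjusted p = 0.0103 and 0.00213). Adipogenesis and lipid storage had 6 higher and 1 lower of 17, or 3 higher without untreated replicate 4 or day 3 replicate 3 or 5. Cholesterol synthesis and uptake had 1 higher and 2 lower of 14, and each count fell by 1 without some libraries (higher, 0 without untreated replicate 2 or 3 or day 3 replicate 2 or 4; lower, 1 without untreated replicate 3 or 5 or day 3 replicate 3, 4 or 5). Translation factors had 6 of 29 higher and none lower, which became 3 higher without untreated replicate 4, and 1 higher and 2 lower when libraries were scaled to their totals. The unfolded protein response had 3 higher and 2 lower of 25 (lower, 1 without untreated replicate 3 or 4 or day 3 replicate 1, 3, 4 or 5), with the chaperone gene Dnajb9 at 87.5 ± 20.2 and 164 ± 22.7 CPM (edgeR adjusted p = 0.0011). Collagen maturation had 2 and 4 of 24, or none and 7 when scaled to totals, and its higher members numbered 0 without untreated replicate 4 and 1 without untreated replicate 1, 2, 3 or 5 or day 3 replicate 2, 3, 4 or 5. Loxl2, which crosslinks collagen, was lower (log2 -0.75 ± 0.20, edgeR adjusted p = 0.0133). Of 19 genes of TGF-beta ligands and response, 3 rose and 2 fell (1 without untreated replicate 1, 4 or 5 or day 3 replicate 1, 2, 4 or 5), with Tgfb1 up and Inhba, an activin subunit, down (log2 0.77 ± 0.17 and -2.24 ± 0.42, edgeR adjusted p = 0.004 and 0.00101). Senescence-associated genes had 5 of 16 higher, each also in another list, circadian clock genes 3 of 15 lower, and imprinted growth genes 4 lower of 14 (1 without untreated replicate 2 or 3 or day 3 replicate 1, 3 or 4 and 2 without untreated replicate 1 or 5 or day 3 replicate 5) and 1 higher (0 without untreated replicate 2 or 4 or day 3 replicate 2 or 4). The list of MHC class II and interferon-gamma genes had 3 higher, among them Cxcl10, and 3 lower of 14, or 6 lower when scaled to totals. Among fibroblast identity markers, 2 of 22 were higher (0 without untreated replicate 2 or 3 and 1 without untreated replicate 1, 4 or 5 or day 3 replicate 2, 3 or 5) and 3 lower (1 without untreated replicate 5 or day 3 replicate 3 and 5 without untreated replicate 1), and 6 were lower when scaled to totals.

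Markers of other cells that were also measured had at most 13 tested members per list. Of 3 tested tuft cell markers, 1 was higher and 1 lower. The higher one, Avil, lost its call without untreated replicate 4 or day 3 replicate 2 (edgeR adjusted p = 0.0626 and 0.059). Of 3 tested markers of type-2 innate lymphocytes, 1 was lower and none higher. Endothelial markers summed to 1089 to 1439.8 CPM untreated and 1244 to 1506 on day 3, with 1 higher and 1 lower of 7 tested (higher, 2 without untreated replicate 5 or day 3 replicate 2 or 3; lower, 0 without untreated replicate 3 or day 3 replicate 4). Pericyte and smooth muscle markers summed to 506 to 771 and 453 to 665 CPM, with 2 higher and 1 lower of 13 (higher, 0 without untreated replicate 2 or 4 and 1 without untreated replicate 3 or 5 or day 3 replicate 3 or 5). Summed levels on day 3 were at most 4.05 CPM for B and plasma cells, 11.4 for granulocytes and mast cells, 289.6 for tuft cells, 172 for type-2 innate lymphocytes, 41.6 for Schwann cells and 0.557 for erythroid cells, against maxima of 6.46, 7.91, 323, 269, 31.1 and 0.851 CPM untreated. For tuft cells the medians ran the other way, at 220.8 CPM on day 3 and 169.29 untreated, with overlapping ranges.

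**Figure D4:**
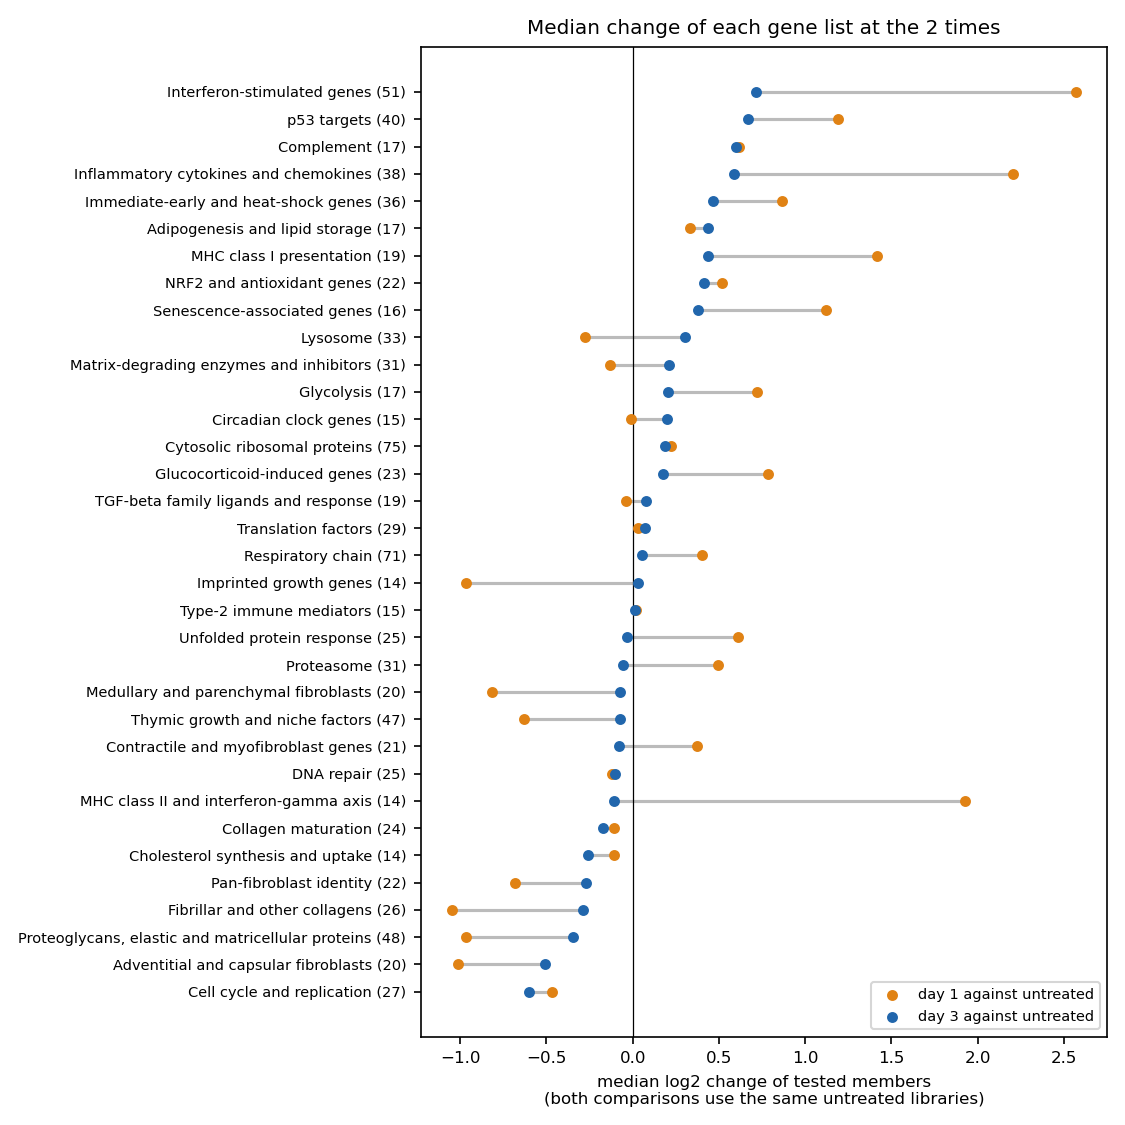
Median log2 change of the tested members of each process and identity list on day 1 (orange) and day 3 (blue) against the same untreated libraries, with the number tested in brackets. Interferon-stimulated genes had the highest median of these lists on both days, at 2.57 on day 1 and 0.71 on day 3. The lysosomal, matrix-degrading, imprinted, circadian clock and TGF-beta lists had medians below 0 on day 1 and above 0 on day 3.

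The largest rises by the fitted change included genes of other cell types. Keratins Krt14, Krt8 and Krt7 went from 1.95 ± 2.04, 3.97 ± 2.53 and 5.85 ± 2.54 CPM untreated to 29.3 ± 27.6, 44.4 ± 20 and 36.4 ± 31.2 CPM on day 3 (log2 3.95 ± 1.02, 3.52 ± 0.67 and 2.72 ± 0.76, edgeR adjusted p = 0.0175, 0.00305 and 0.0247). Krt7 lost its call without untreated replicate 2, 3 or 4 or day 3 replicate 1 (edgeR adjusted p = 0.0541 to 0.0638). Mesothelial markers, of which 14 of 15 were analysed, summed to 163 to 672 CPM untreated and 445 to 2111 on day 3, with none at 0 in either group. Of the 13 tested, 6 were higher, with 3 to 10 when a library was left out, the lowest without untreated replicate 2, 3 or 4 or day 3 replicate 1 and the highest without day 3 replicate 3. Msln, mesothelin, was at 84.2, 50.5, 16.5, 18.8 and 92.4 CPM untreated and 523, 186, 84.3, 461 and 302 CPM on day 3, with overlap (log2 2.61 ± 0.66, edgeR adjusted p = 0.0162). Thymic epithelial markers, which share keratins with the mesothelial list, summed to 51.4 to 124 and 113 to 477 CPM, while Epcam stayed near 0 as given above. Of the 8 tested thymic epithelial markers, 4 were higher and 1 lower, with a median log2 change of 1.47. Leaving out a library gave 3 or 4 higher and 0 or 1 lower. The part of mesothelial or epithelial cells in these rises was not tested.

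**Figure D5:**
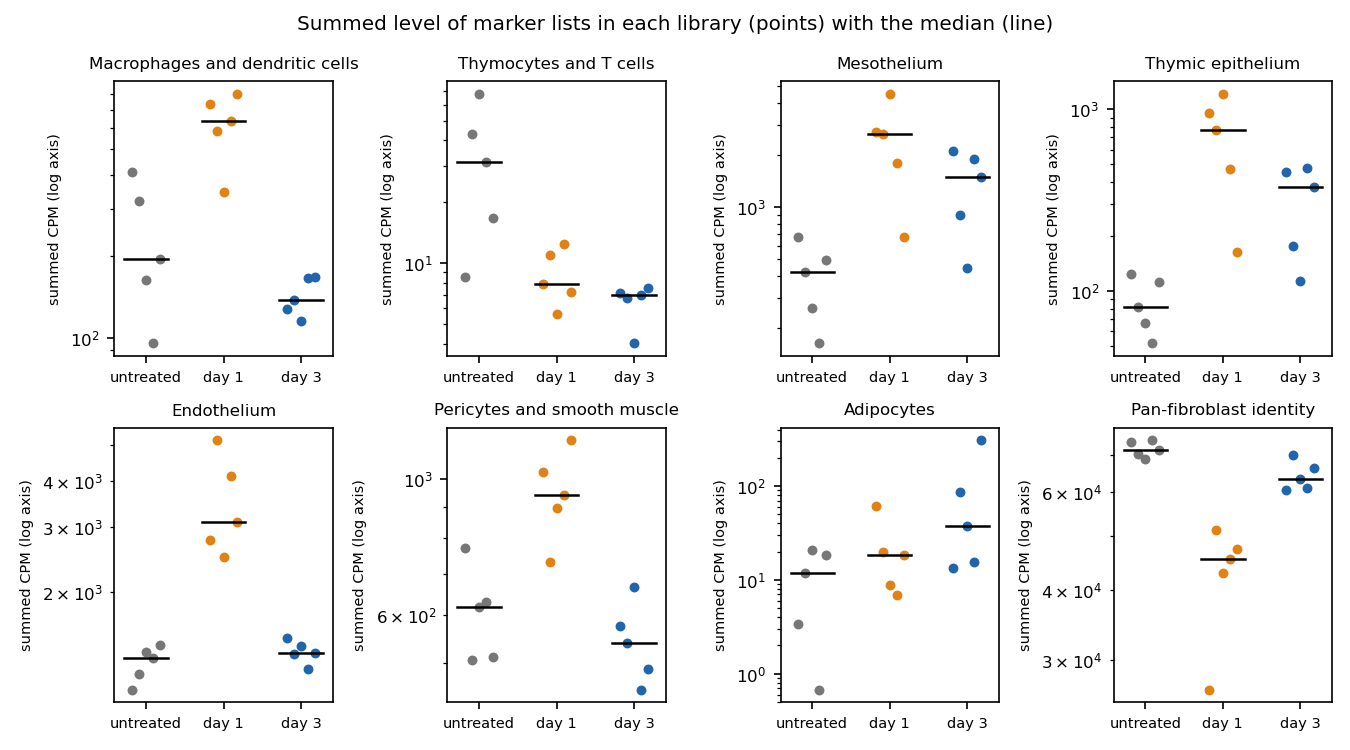
Summed CPM of marker lists in each library, with points for the 5 untreated (grey), 5 day 1 (orange) and 5 day 3 libraries (blue) and a line at the median, on log axes that differ between panels. Macrophage and dendritic cell markers were lowest as a median on day 3, and mesothelial markers were higher on day 3 than untreated in median with overlapping ranges.

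Nppc, which encodes C-type natriuretic peptide, held 6.81, 4.85, 4.32, 1.01 and 2.13 CPM untreated, 11, 10.9, 10.9, 17.8 and 15.1 CPM on day 1 and 33.5, 79.4, 43.4, 42.1 and 52.5 CPM on day 3. The day 3 libraries differed widely among themselves but exceeded all others (log2 3.84 ± 0.32 and 1.92 ± 0.27, edgeR adjusted p = 9.2e-08 and 1.6e-05). Chchd10, a mitochondrial protein, was at 17.9, 9.70, 8.63, 7.05 and 8.09 CPM untreated and 107, 104, 48.9, 63.5 and 63.4 CPM on day 3, above day 1 as well (log2 3.02 ± 0.25 and 1.51 ± 0.22, edgeR adjusted p = 8.5e-08 and 2.3e-05). Sema4a, a semaphorin, Nrgn, neurogranin, and Gng13, a G protein subunit, rose by 2.66 ± 0.30, 2.91 ± 0.69 and 3.74 ± 0.62 (edgeR adjusted p = 7.9e-06, 0.0107 and 8.0e-04). Ramp3, a partner of the calcitonin-like receptor, Cyp2f2, a cytochrome P450, Fetub, a fetuin, and Plppr3 were above both other groups, by 2.30 ± 0.33, 2.22 ± 0.30, 1.79 ± 0.23 and 2.26 ± 0.23 against untreated (edgeR adjusted p = 1.2e-04, 3.1e-05, 2.1e-05 and 1.2e-06). The gene listed as Mir692-1 owed the size of its fitted change to 1 library, with 9.93, 12.4, 10.6, 6.69 and 1688 CPM on day 3 and 4.25, 3.23, 3.24, 3.36 and 3.40 CPM untreated. The remaining day 3 values, 6.69 to 12.4 CPM, also lay above all untreated ones. Mir692-1 lost its call without untreated replicate 2, 3, 4 or 5 (edgeR adjusted p = 0.0613 to 0.0671).

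Among the largest falls outside the lists, Marcks, a substrate of protein kinase C at the membrane, held 142, 209, 201, 205 and 154 CPM untreated and 41.0, 37.2, 53, 46.2 and 51.4 CPM on day 3, far apart (log2 -2.0 ± 0.21, edgeR adjusted p = 1.6e-06). Sgcd, a sarcoglycan, Arhgap20, a GTPase-activating protein, and D17H6S56E-5 had log2 changes of -1.93 ± 0.21, -1.92 ± 0.31 and -2.03 ± 0.33 (edgeR adjusted p = 2.7e-06, 2.4e-04 and 3.7e-04). Below both other groups were Med21, a Mediator subunit, at 6.07 ± 2.26 CPM against 20.4 ± 3.41 untreated and 15.3 ± 8.14 on day 1, Gmppb, which makes GDP-mannose, at 18.5 ± 2.86 against 36.7 ± 9.44 and 101 ± 22.8, the homeobox gene Hoxb2 at 27.5 ± 3.20 against 58.9 ± 27.1 and 69.3 ± 12.2, and the ribosomal RNA precursor Rn45s at 85.8 ± 12.3 against 230.0 ± 92.5 and 319 ± 98.3 (day 3 against untreated, edgeR adjusted p = 3.5e-04, 0.00135, 0.00212 and 7.1e-04). In GENCODE vM21 on GRCm38, Cdkn1a spans chr17:29090976-29100727, Gas6 chr8:13465374-13494490, Mmp11 chr10:75923222-75936496, Marcks chr10:37133375-37138920 and Nppc chr1:86666291-86670571. C4b at chr17:34728380-34743882, H2-K1 at chr17:33996017-34000347, H2-D1 at chr17:35262730-35267499 and H2-Aa at chr17:34282744-34287823 lie together in the MHC region of chromosome 17.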

How the data were processed

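RNA was measured with MARS-seq in 15 libraries of sorted mouse thymic fibroblasts, 5 each from untreated mice and from mice 1 and 3 days after irradiation, per the labels. Per the submitters' processing notes, tools were STAR 2.5.2b, HTSeq, cutadapt, bcl2fastq and DESeq2, on mm10. The table deposited by the authors held UMI counts of 12763 genes, not scaled, and the deposited log2 fold changes and adjusted p-values of the authors' own day 3 comparison, given as untreated over day 3 and turned round here. The 30 other per-sample columns, normalized or transformed by the authors, were not used. Each gene had at least 6 UMIs in some library. No gene in the table had the mt- prefix of mitochondrially encoded genes, so their share of the UMIs could not be checked. No pair of libraries in a group was as close as repeated counts of 1 library would be (chi-square per degree of freedom at least 2.93). This check cannot tell whether libraries came from the same animal or pool.

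Genes were filtered with filterByExpr and libraries scaled with TMM, and 1 edgeR 4.0.16 quasi-likelihood model with robust dispersion (R 4.3.3) took in all 15 libraries, with group as its factor, with Benjamini-Hochberg adjustment over all 10207 genes. The biological coefficient of variation was 0.201. Changes are log2 ± SE (the change over the square root of F) and levels CPM, as single values or mean ± SD (n = 5). Tests were checked on simulated data. The 34 process and identity lists and 13 marker lists, and the members described, were chosen with earlier results of these data known, so they are described by counts and medians with no test of a list. Genes were named by rule: the 12 largest rises and 12 largest falls that reached a mean of 20 CPM in either group and whose values did not overlap, the 8 each way that differed in the same direction from both groups, up to 4 of smallest p per list, and a set of niche, cytokine and gate genes. Further list members were named after their values were seen. A few genes that the rule covers are not reported here. Promoter sequences are from RefSeq (GRCm38.p6) and gene positions from GENCODE vM21. Figures used matplotlib 3.10.9, with pandas 2.3.3, numpy 2.4.6 and Python 3.11.15. Alternatives were DESeq2 1.42.0, limma 3.58.1 voom with quality weights, scaling by RLE or totals, an open or stricter filter (10 counts in 5 libraries), a fit to the compared groups alone, a block for replicate number, thinning to 740169 UMIs, glmTreat at 1.5-fold, and leaving out each library. Replicate numbers are not stated to pair samples. Depth ran from 740169 to 3750214 UMIs, which limits precision for genes of a few CPM.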

Additional observations from a re-analysis of the deposited data

Results flagged for a closer look

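In 31 of 282 sets of 5 libraries, for the genes named here in the untreated or day 3 group, 1 library was far from the other 4 by Dixon's criterion. Chance flags about 1 in 20 such sets. Untreated replicate 1 was high for Chchd10 (17.9 CPM, with 9.70 in the nearest library), high for Mir692-1 (4.25 CPM, with 3.40 in the nearest library), high for H2-K1 (1707 CPM, with 1139 in the nearest library), high for H2-D1 (2684 CPM, with 1789 in the nearest library), low for Loxl2 (238 CPM, with 429 in the nearest library), low for Lama2 (298 CPM, with 649 in the nearest library), low for Mmp2 (1588 CPM, with 1859 in the nearest library), low for Adamts5 (5.95 CPM, with 19.8 in the nearest library), low for Kitl (16.2 CPM, with 26.3 in the nearest library) and high for Inmt (812 CPM, with 656 in the nearest library). Untreated replicate 2 was high for Igf1 (247 CPM, with 174 in the nearest library). Untreated replicate 4 was low for Sgk1 (61.1 CPM, with 87.7 in the nearest library). Untreated replicate 5 was high for Krt14 (5.53 CPM, with 1.70 in the nearest library), high for Col12a1 (35.8 CPM, with 19.8 in the nearest library), high for Gdf15 (47.2 CPM, with 31.5 in the nearest library), high for Egr2 (54.9 CPM, with 43.0 in the nearest library), high for Saa3 (1077 CPM, with 263 in the nearest library), high for Lcn2 (183 CPM, with 46.8 in the nearest library) and high for Trp53 (35.3 CPM, with 29.5 in the nearest library). Day 3 replicate 2 was high for Mki67 (1.62 CPM, with 0.505 in the nearest library), high for Hk2 (126 CPM, with 85.0 in the nearest library) and high for Nid1 (1231 CPM, with 888 in the nearest library). Day 3 replicate 3 was low for H2-Aa (21.2 CPM, with 28.9 in the nearest library), high for Cnn2 (127 CPM, with 83.7 in the nearest library), high for Cx3cl1 (147 CPM, with 93.1 in the nearest library), high for Hexa (644 CPM, with 452 in the nearest library) and high for Fgf10 (84.3 CPM, with 60.2 in the nearest library). Day 3 replicate 4 was high for Ccl22 (0.557 CPM, with 0 in the nearest library) and low for Cxcl12 (384 CPM, with 427 in the nearest library). Day 3 replicate 5 was high for Mir692-1 (1688 CPM, with 12.4 in the nearest library) and high for Lyz2 (11.3 CPM, with 5.29 in the nearest library).

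For some genes the changes on day 1 and day 3 against the same untreated libraries were called in opposite directions, and the difference, which equals the change between day 3 and day 1, was called too. H2-Aa had a log2 change of 0.91 on day 1 and -1.71 on day 3, a difference of -2.62 (edgeR adjusted p = 5.0e-06). Mmp11 had a log2 change of -0.88 on day 1 and 2.02 on day 3, a difference of 2.90 (edgeR adjusted p = 8.8e-09). Gmppb had a log2 change of 1.44 on day 1 and -0.98 on day 3, a difference of -2.42 (edgeR adjusted p = 5.7e-09). H2-Ab1 had a log2 change of 1.08 on day 1 and -1.58 on day 3, a difference of -2.66 (edgeR adjusted p = 2.7e-05). Cx3cl1 had a log2 change of -0.90 on day 1 and 1.09 on day 3, a difference of 1.98 (edgeR adjusted p = 7.8e-07). Mmp2 had a log2 change of -0.60 on day 1 and 1.14 on day 3, a difference of 1.74 (edgeR adjusted p = 4.8e-08). Hexa had a log2 change of -0.65 on day 1 and 0.79 on day 3, a difference of 1.44 (edgeR adjusted p = 2.2e-07). H2-Eb1 had a log2 change of 1.01 on day 1 and -1.56 on day 3, a difference of -2.57 (edgeR adjusted p = 3.8e-05). Inmt had a log2 change of -2.46 on day 1 and 1.28 on day 3, a difference of 3.74 (edgeR adjusted p = 2.0e-06). Class II genes are also expressed by macrophages and dendritic cells, whose summed markers had a median of 195 CPM untreated, 637 on day 1 and 137 on day 3; their part in these results was not tested.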

How the results depend on the processing

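Against the 1883 genes called on day 3 (939 higher and 944 lower), limma voom called 3289 (1571 and 1718), total-count scaling 660 higher and 1442 lower (31.4% higher, against 49.9%), thinning to equal depth 749 (410 and 339) and a test against 1.5-fold 284 (156 and 128). DESeq2 called 2127, RLE scaling 1876, no filter 2080, the stricter filter 1882 and only the compared groups 2541. Leaving out 1 library gave 1299 to 2071 calls, 624 to 1010 higher and 649 to 1061 lower, with 624 higher without untreated replicate 4. The largest of these counts all came without untreated replicate 1, which at 1102176 UMIs was the shallowest of the compared libraries. Each other omission gave fewer than 1883 calls. For day 3 against day 1, with 3335 calls, thinning gave 2089 (967 and 1122), the 1.5-fold test 965 (445 and 520), and leaving out a library 2804 to 3547 (1377 to 1732 higher and 1427 to 1815 lower). For day 1 against untreated, total-count scaling gave 1498 higher and 3652 lower, thinning 2980 (1551 and 1429) and the 1.5-fold test 2055 (1049 and 1006). Thinned and 1.5-fold counts are lower by construction, with fewer counts or a larger null change. The cause of the other differences was not tested.

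With the replicate number as a block, 1596 genes were called on day 3 (798 each way). Same-numbered untreated and day 3 libraries correlated by -0.172 to 0.166 in their deviations from the group means, and 2 of 5 correlated best with their own number. With 5 libraries per group, these values cannot settle whether the numbers mark a shared batch. Among the named genes the block ended 9 calls and added 1, and DESeq2 added 3. Total-count scaling ended 9 calls, thinning 13 among the genes still tested, and the 1.5-fold test 82. Leaving out 1 library ended between 4 calls (untreated replicate 1) and 16 (untreated replicate 4).

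No named gene that was called changed sign under any alternative, but 6 that were not called did. Total-count scaling turned Ccl11 to -0.105, Col3a1 to -0.015, Fgf7 to -0.111, Il33 to -0.016 and Trp53 to -0.084, and thinning turned Ccl11 to -0.046 and Fgf7 to -0.132. Leaving out a library gave Ccl11 -0.043 to 0.079, Fgf7 -0.066 to 0.057, Trp53 -0.054 to 0.112 and Igf1 -0.22 to 0.023. Genes of a few CPM, such as Mki67, rest on few UMIs.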

Other observations

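Genes outside the lists, chosen after their values were seen, also differed on day 3. Apod, a lipocalin, was at 934, 800.4, 940.3, 1090.2 and 1029.5 CPM untreated and 2610.2, 1736, 2383, 1895 and 2576 CPM on day 3 and Ch25h, which makes 25-hydroxycholesterol, at 15.8 ± 4.65 and 49.4 ± 8.14 CPM. Apoc1, another apolipoprotein, and Pltp, which transfers phospholipid between lipoproteins, went from 7.31 ± 4.27 to 37.7 ± 8.24 and from 68.0 ± 15.7 to 161 ± 18.8 CPM (edgeR adjusted p = 1.5e-05, 9.6e-06, 6.5e-05 and 0.00101 in the order named). Cpxm1, a secreted carboxypeptidase-like protein, held 402, 636, 546, 540.1 and 407 CPM untreated, 844 ± 222 on day 1 and 1557, 1640.3, 2523, 1448 and 1857 on day 3 (edgeR adjusted p = 2.2e-06 against untreated and 1.7e-04 against day 1).

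Other genes chosen in the same way were lower. Ackr4, a scavenging receptor for the chemokines that guide thymocytes and dendritic cells, was at 149, 182, 192, 145 and 235 CPM untreated and 63.3, 66.1, 48.4, 77.4 and 58.0 CPM on day 3 (log2 -1.52 ± 0.21, edgeR adjusted p = 3.1e-05). Il34, a ligand of the macrophage receptor CSF1R, went from 107 ± 24.7 to 55.6 ± 11.7 CPM and Mfge8, which bridges dying cells to phagocytes, from 657 ± 181 to 361 ± 39.9 CPM. Reck, a membrane inhibitor of matrix metalloproteinases, was at 152 ± 12.5 CPM untreated, 30.5 ± 9.28 on day 1 and 79.6 ± 7.22 on day 3 (edgeR adjusted p = 0.00237, 0.00337 and 2.9e-04 in the order named).

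Genes called higher and lower differed in the length of genome they span in GENCODE vM21, which gave a span for 98.8% of the 10207 tested genes. The median span was 14.41 kb for genes higher on day 3, 34.63 kb for genes lower and 23.62 kb for genes not called. Across 5 equal groups of genes by span, the share called higher on day 3 was 14.2% in the shortest and 5.21% in the longest, and the share called lower 5.36% and 14.1%. On day 1 against the same untreated libraries, the shares were 36.0% and 11% higher and 13.0% and 37.2% lower. The median span of the higher genes was below that of the lower genes on day 3 in each alternative run, between 10.88 and 15.41 kb against 27.6 and 38.14 kb. The spans are a description of the calls, and no cause was tested.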
